A study of Mus musculus with 8 samples.

Results

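The 35 genes described here encode effectors of the type I interferon response in conventional dendritic cells (cDCs), and were chosen by name as interferon-stimulated effectors, leaving out OAS, IRF, STAT, PARP, GBP and sensor genes. Of the 35, 34 had a row in the deposited table of 31053 genes, all 34 passed the filter on low counts, and Mx2 was not analysed here. RNA-seq was done on 4 CKO libraries (D146, D149, D163 and D169) and 4 WT libraries (D142, D150, D154 and D164) of mouse spleen. Every library came from a culture of purified splenic DCs, about 20% pure, kept with 100 nM CpG-B for 9 h before cDCs were sorted as Lin- MHC II+ CD11c+ cells. CpG-B, an oligonucleotide that engages TLR9, was thus present in both genotypes, and no unstimulated cells were analysed here. The sources used here give neither the gene that is lost in CKO nor its Cre driver, nor the strain, sex and age of the mice, so the genotype could not be checked on its target. Nor do they tie each library to an animal of its own, so a p-value here speaks only to the scatter of these libraries, which may be technical.

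Type I interferons bind a receptor made of IFNAR1 and IFNAR2, whose kinases JAK1 and TYK2 activate transcription factors, STAT2 among them. Together with IRF9 these bind interferon-stimulated response elements (ISREs) in the promoters of the effector genes. The effectors block virus entry, RNA translation, genome copying and release, attach the ubiquitin-like protein ISG15 to other proteins, or tune the signalling itself. In dendritic cells the programme accompanies maturation after contact with microbial nucleic acids, and is driven both by the sensing receptor and by interferon that the cells or their neighbours release.

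Promoter windows, from 250 bases before to 50 bases after a RefSeq start site (build GRCm38.p6), were found for 27 of the 34 genes. No entry was matched for Ifi204, Ifi27l2a, Ly6e, Mx1, Rtp4, Tor3a and Usp18. The ISRE core was searched as GAAANNGAAA and on the other strand as TTTCNNTTTC, with overlapping matches counted. It was present in 13 of the 27 genes (48.1%), against 1079 of 27025 genes in the whole promoter table (3.99%). The core of the GAS element, TTCNNNGAA, another interferon-responsive element, was present in 5 of the 27 (18.5%), against 9.55% of all genes. The windows below are shown because Isg15 and Bst2 were lower in CKO, Ifit3 and Ifit3b are near-identical neighbours, Eif2ak2 had the highest fold change of the members, and Trim25 had the smallest p-value. Capitals mark the ISRE core matches, and each window is written 5′ to 3′ on the gene's own strand.
Isg15, chr4:156200769-156201068, minus strand: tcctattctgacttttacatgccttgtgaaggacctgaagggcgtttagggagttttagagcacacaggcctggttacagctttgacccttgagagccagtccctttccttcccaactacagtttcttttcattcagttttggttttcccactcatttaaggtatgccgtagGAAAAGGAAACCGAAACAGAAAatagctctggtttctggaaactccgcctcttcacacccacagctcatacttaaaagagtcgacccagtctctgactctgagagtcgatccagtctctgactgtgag
Bst2, chr8:71537423-71537722, minus strand: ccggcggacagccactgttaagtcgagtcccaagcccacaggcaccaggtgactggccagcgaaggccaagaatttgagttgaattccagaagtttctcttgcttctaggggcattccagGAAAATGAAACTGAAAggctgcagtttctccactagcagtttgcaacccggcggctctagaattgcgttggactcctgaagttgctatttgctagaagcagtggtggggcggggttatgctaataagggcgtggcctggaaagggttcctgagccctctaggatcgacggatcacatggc
Ifit3, chr19:34583279-34583578, plus strand: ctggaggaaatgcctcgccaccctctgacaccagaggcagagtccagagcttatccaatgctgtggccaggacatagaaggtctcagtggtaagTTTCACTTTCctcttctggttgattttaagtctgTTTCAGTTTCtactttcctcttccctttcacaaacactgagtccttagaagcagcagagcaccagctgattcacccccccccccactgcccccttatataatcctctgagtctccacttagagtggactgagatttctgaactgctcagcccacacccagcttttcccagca
Ifit3b, chr19:34607707-34608006, plus strand: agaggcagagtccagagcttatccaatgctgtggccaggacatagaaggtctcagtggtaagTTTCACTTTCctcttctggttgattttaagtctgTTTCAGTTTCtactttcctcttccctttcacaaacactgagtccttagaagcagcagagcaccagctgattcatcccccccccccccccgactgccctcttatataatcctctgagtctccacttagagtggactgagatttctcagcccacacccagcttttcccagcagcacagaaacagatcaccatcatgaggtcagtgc
Eif2ak2, chr17:78882523-78882822, minus strand: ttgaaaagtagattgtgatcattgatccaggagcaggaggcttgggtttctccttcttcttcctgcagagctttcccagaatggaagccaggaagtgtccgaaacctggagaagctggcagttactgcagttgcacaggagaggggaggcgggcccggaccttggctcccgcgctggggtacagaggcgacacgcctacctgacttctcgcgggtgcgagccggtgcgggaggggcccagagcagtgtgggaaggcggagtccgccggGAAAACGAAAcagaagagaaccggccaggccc
Trim25, chr11:88999153-88999452, plus strand: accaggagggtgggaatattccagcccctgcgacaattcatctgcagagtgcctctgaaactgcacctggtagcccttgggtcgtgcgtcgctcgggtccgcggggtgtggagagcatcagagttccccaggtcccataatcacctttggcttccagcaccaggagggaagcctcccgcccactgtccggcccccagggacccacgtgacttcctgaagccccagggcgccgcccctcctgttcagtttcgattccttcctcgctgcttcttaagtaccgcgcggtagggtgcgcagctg

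Isg15 held 3 overlapping matches, beginning 78 to 66 bases before the start site. Bst2 held 2 overlapping matches at 130 and 124 bases before it. The aligned Ifit3 and Ifit3b windows were identical in 259 of 340 columns (76.2%), where columns with a gap count as not identical. Nearly all the other columns were gaps and not differing bases, because the windows are shifted against each other. Both windows held the same pair of matches, at 156 and 122 bases before the Ifit3 start. The first of the pair lay 188 bases before the Ifit3b start. The Eif2ak2 match lay 18 bases after the start, and the Trim25 window had no match, which says only that these letters are not in the window. A match is a string of letters and not a shown binding site.

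Total counts were 25304765 to 34291830 per CKO library and 26307642 to 40950088 per WT library, and no library was a copy of another. Levels are given as CPM, that is, counts scaled to library size after TMM normalization, and CPM per kb is that value divided by gene length. The sort was checked against cDC genes: Cd74, H2-Ab1, Flt3 and Zbtb46 were present in all 8 libraries. Itgax, which encodes CD11c, averaged 8.67 ± 2.03 CPM in CKO and 6.97 ± 1.61 CPM in WT (SD, n = 4 each), and the cDC1 markers Xcr1 and Clec9a averaged under 1 CPM in each genotype. B cell markers summed to 26.9 to 120.6 CPM in CKO, against 25.4 to 49.7 CPM in WT, and macrophage markers to 47.2 to 87.5 CPM, against 98.7 to 159.0 CPM in WT.

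The effector genes were mostly lower in CKO than in WT, and 7 of 34 passed the test: Trim25, Trafd1, Ifi27l2a, Bst2, Lgals3bp, Isg15 and Ly6e. None was called higher by edgeR, limma-voom or DESeq2. The 7 make up 20.6% of the members, against 4.57% of the 11702 genes tested that were called lower, while 4.3% were called higher and 8.87% in either direction. Of the 34 log2 fold changes, 31 were negative, against 47.0% of all genes, and their median was -0.57, against 0.03 over all genes. Scaling by total counts alone moved the median of all genes to 0.19 and left 28 members negative, 5 called lower and 1, Eif2ak2, called higher. The members were chosen with earlier results known, so these counts describe the list and are no test of it. At an unadjusted p under 0.05, 20 members were lower and 1, Eif2ak2, was higher. Of all genes tested, 13.2% were lower at that cut. In 6 members (17.6%) every CKO library lay below every WT library, against 8.09% of all genes tested. Calls are from the quasi-likelihood test of edgeR, adjusted by Benjamini-Hochberg over all genes tested, at a threshold of 0.05. In bulk libraries, fewer cells of a type and less RNA per cell cannot be told apart.

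**Figure D1:**
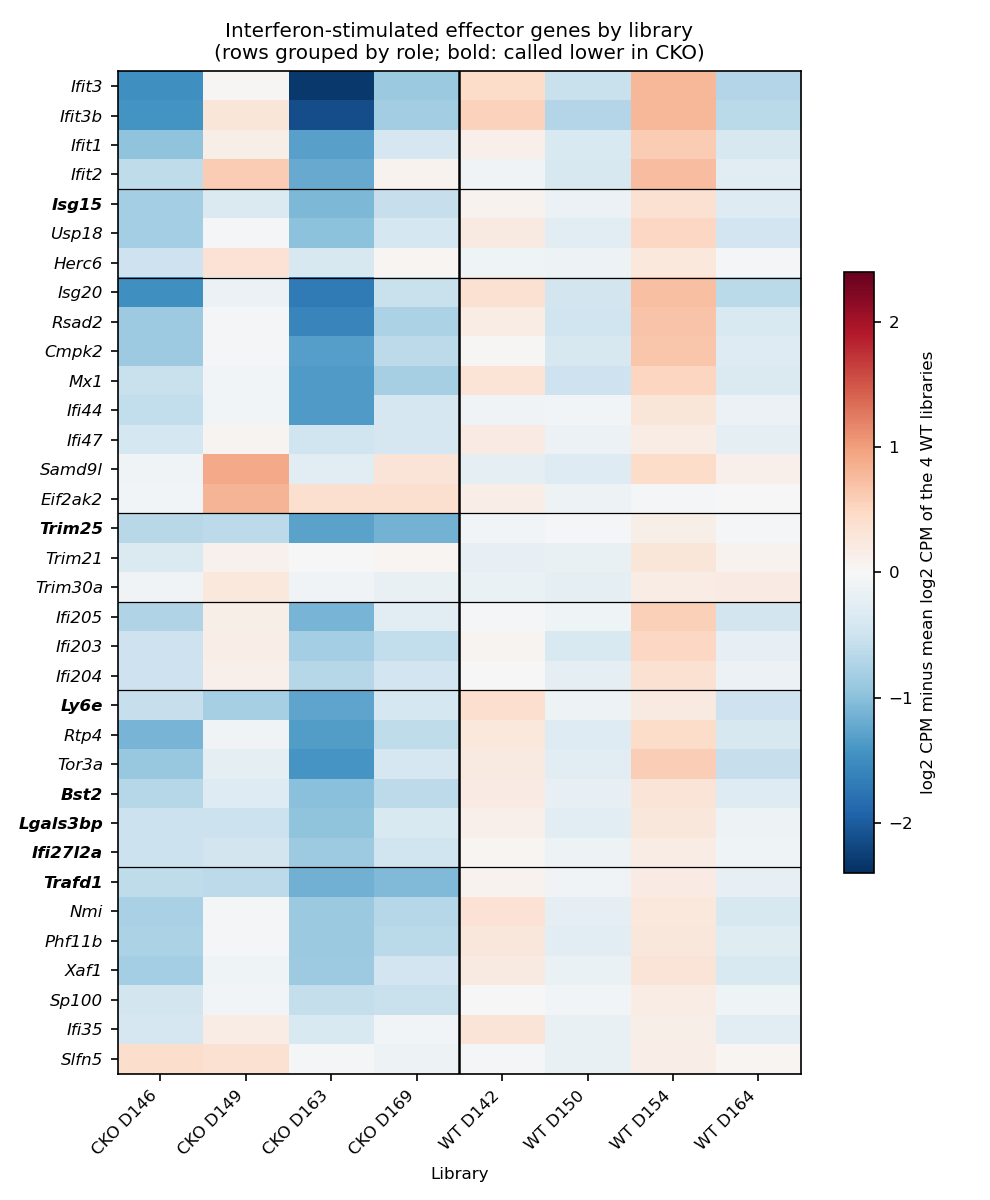
Log2 CPM of each effector gene (rows, grouped by role) in each library (columns) minus the mean of the 4 WT libraries, with blue below and red above that mean and genes called lower in bold. CKO D163 was the lowest CKO library in 28 of 34 genes and CKO D149 the highest in 30, while WT D154 was the highest WT library in 28.

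The number of calls moved with single libraries. Without CKO D149, 16 members were called lower. Without CKO D146 or D169, 3 were called lower, and without WT D142, 2. Without CKO D163, WT D150 or WT D154, 1 was called lower, which was Trim25 each time. Calls over all genes also moved, from 1038 in the main fit to 70, 82 and 138 without CKO D163, WT D150 and WT D154. They were 347 without WT D142, 457 without CKO D169, 1310 without CKO D146 and 1327 without CKO D149. Without WT D164, 1468 of all genes were called, and 7 members were called lower. With the B cell markers or the difference between cDC1 and cDC2 markers as a covariate, 0 members were called by edgeR. At an unadjusted p under 0.05, 7 and 4 members were lower in these fits. With the pDC markers as covariate, 17 members were called lower. The calls over all genes moved too: 357 with the B cell, 0 with the cDC1 and cDC2 and 1915 with the pDC covariate. With the B cell covariate 28 of 34 fold changes were negative, with a median of -0.45, and with the cDC1 and cDC2 covariate 29 were, with a median of -0.40. In these 2 fits Trim25 had -0.76 and -0.88 and Trafd1 -0.79 and -0.84. Over 20 alternative fits, the call was kept in 18 for Trim25, 15 for Trafd1, 14 for Ifi27l2a, 11 for Isg15 and for Bst2, and 9 for Lgals3bp and for Ly6e.

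Among the 3 genes of the ISG15 system, Isg15 fell in CKO and the other 2 did not pass the test. Isg15, a ubiquitin-like protein that is conjugated to targets or secreted, had 1728, 2392, 1431 and 2066 CPM in the CKO libraries D146, D149, D163 and D169, against 3223, 2738, 3899 and 2441 CPM in the WT libraries D142, D150, D154 and D164. All CKO libraries lay below all WT libraries, but CKO D149 and WT D164 nearly met. The log2 fold change was -0.69 ± 0.19 (SE, edgeR adjusted p = 0.0453). With an offset for GC content and gene length it was -0.58 and did not pass (edgeR adjusted p = 0.0532). Isg15 was also the most abundant member per length, at 2519 ± 550 CPM per kb in CKO and 4068 ± 842 in WT. Usp18, the protease that removes ISG15 and also restrains the receptor, had 1750, 3008, 1557 and 2300 CPM in CKO, against 3561, 2603, 4365 and 2231 CPM in WT. CKO D149 and D169 overlapped WT D150 and D164, and the log2 fold change of -0.57 ± 0.25 did not pass (edgeR adjusted p = 0.155). Herc6, the main ISG15 ligase of the mouse, averaged 907 ± 247 CPM in CKO and 966 ± 125 CPM in WT, with a log2 fold change of -0.09 ± 0.18 that turned to 0.06 under scaling by total counts. Herc6 shares exons with the predicted gene Gm45193, so its counts are uncertain.

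Proteins of the membrane, the secretory route and the cell surface held most of the calls, with 4 of 6 lower and 6 of 6 negative. Among all 34 members, 7 were called lower and 31 were negative. Among all genes tested, 4.57% were called lower and 47% were negative. Ifi27l2a, a small hydrophobic interferon-induced membrane protein, had 574, 605, 449.7 and 595 CPM in CKO, against 851, 755, 934 and 770.3 CPM in WT. The groups did not overlap, and the log2 fold change was -0.57 ± 0.13 (edgeR adjusted p = 0.0282). Bst2, or tetherin, which holds budding virus particles at the cell surface, had 454, 583, 361 and 469.6 CPM in CKO, against 835, 632, 900.4 and 587 CPM in WT. CKO D149 came within a few CPM of WT D164 without crossing it. Bst2 fell by 0.66 ± 0.18 on the log2 scale (SE; edgeR adjusted p = 0.0431), but with an offset for GC content and gene length the log2 fold change was -0.36 and did not pass (edgeR adjusted p = 0.176).

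Lgals3bp, a secreted glycoprotein that binds galectins, had 345, 347, 255 and 387 CPM in CKO, against 542, 411, 595 and 456 CPM in WT. The highest CKO library for this gene was D169, not D149, and no CKO library reached a WT library. Its log2 fold change was -0.59 ± 0.16 (edgeR adjusted p = 0.0437), and with the GC and length offset it was -0.38 and did not pass (edgeR adjusted p = 0.146). Ly6e, a lipid-anchored surface protein that restricts some viruses and aids others, had 462, 394, 283 and 507 CPM in CKO, against 900.6, 622, 795 and 482 CPM in WT. CKO D169 lay above WT D164, so Ly6e is the called member whose groups overlapped. Its log2 fold change was -0.77 ± 0.22 (edgeR adjusted p = 0.0493), and with the GC and length offset it was -0.64 and did not pass (edgeR adjusted p = 0.0752). Rtp4, a chaperone of receptor transport, had 166, 341, 144 and 238 CPM in CKO, against 432, 291, 489.9 and 278 CPM in WT. Only CKO D149 reached the WT range. The log2 fold change of -0.75 ± 0.27 did not pass (edgeR adjusted p = 0.0984), although DESeq2 called it. Exons of Rtp4 overlap Gm45338 on the same strand, and 13.65% of its 50-base stretches also occur in Gm45338, so its counts are uncertain. Tor3a, an ATPase of the torsin family, averaged 340 ± 116 CPM in CKO and 566 ± 198 CPM in WT, with a log2 fold change of -0.74 ± 0.28 that did not pass.

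**Figure D2:**
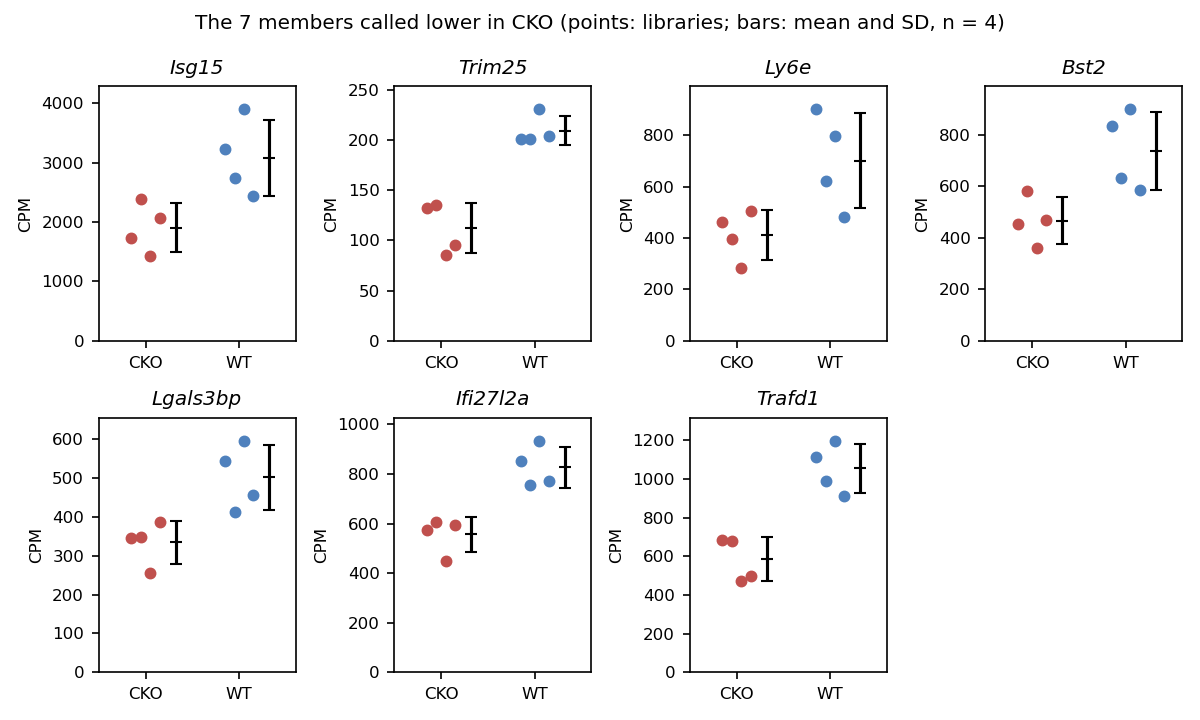
CPM in each library (points) with mean and SD (bars, n = 4) for the 7 effector genes called lower, CKO left and WT right in each panel. The groups are separate in all panels but that of Ly6e, where CKO D169 at 507 CPM lies above WT D164 at 482 CPM.

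Trim25 had the smallest p-value of all members. It encodes a ubiquitin ligase that acts on the RIG-I pathway, and it had 132, 135, 85.9 and 95.5 CPM in CKO, against 200.5, 200.8, 231 and 204 CPM in WT. The WT libraries were close together, with a coefficient of variation of 6.91%, and all CKO libraries lay well below them. Trim25 fell by 0.90 ± 0.16 on the log2 scale (SE; edgeR adjusted p = 0.0125), and lost the call only in the fits with the B cell covariate and with the cDC1 and cDC2 covariate. The other TRIM proteins did not pass: Trim21, a cytosolic antibody receptor, averaged 117 ± 15.5 CPM in CKO and 122 ± 20.1 CPM in WT. Trim30a, a mouse TRIM protein that restrains TLR signalling, averaged 589 ± 82.3 CPM in CKO and 598 ± 88.4 CPM in WT. Their log2 fold changes were -0.06 ± 0.14 and -0.02 ± 0.14, and turned to 0.10 and 0.13 under scaling by total counts alone.

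Among 7 nuclear and signalling modifiers, Trafd1 fell and 6 did not pass. Trafd1, a zinc finger protein that restrains TLR and RIG-I-like signalling, had 686, 681, 473 and 501 CPM in CKO, against 1116, 992, 1198 and 914 CPM in WT. The groups lay far apart, and the log2 fold change was -0.85 ± 0.16 (edgeR adjusted p = 0.0159). Exons of Trafd1 overlap predicted genes on the opposite strand (Gm42917 and Gm42918), and the sources used here do not say whether reads were counted by strand.

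Sp100, a scaffold of nuclear bodies, had 812, 1052, 736 and 762 CPM in CKO, against 1099, 1055, 1236 and 1020 CPM in WT. Xaf1, which counters the apoptosis inhibitor XIAP, had 401, 657, 382 and 509 CPM in CKO, against 811, 626, 876 and 548 CPM in WT. Nmi, a partner of STAT proteins and of IFI35, had 198, 335, 183 and 212 CPM in CKO, against 431, 295, 404 and 262 CPM in WT. In all 3 genes the overlap came from CKO D149, and the other CKO libraries lay below every WT library. Phf11b, a PHD finger protein, had 1267, 2107, 1152 and 1363 CPM in CKO, against 2582, 1786, 2592 and 1739 CPM in WT. It shows the same layout, with the caveat that 47.0% of its 50-base stretches also occur in other genes, mainly of the Phf11 family. The log2 fold changes were -0.39 ± 0.14 for Sp100, -0.55 ± 0.20 for Xaf1, -0.58 ± 0.22 for Nmi and -0.56 ± 0.21 for Phf11b. Their edgeR adjusted p-values ran from 0.0964 to 0.110. Ifi35, which pairs with NMI, averaged 492 ± 96.6 CPM in CKO and 549 ± 103 CPM in WT. Slfn5, a Schlafen family protein, had 159, 152, 114 and 109 CPM in CKO, against 114, 105, 133 and 123 CPM in WT, with the groups interleaved and a log2 fold change of 0.17 ± 0.15 (edgeR adjusted p = 0.475).

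The 4 IFIT genes, whose proteins bind viral RNA and block its translation, lie next to each other on chromosome 19 within 99.3 kb. All 4 fold changes were negative, with a median log2 fold change of -0.74. None passed edgeR, DESeq2 or limma-voom, and 1 (Ifit3) had an unadjusted p under 0.05. Over all genes tested, 47.0% were negative and 13.2% were lower at that cut. Ifit3 had 207, 585, 116 and 309 CPM in CKO, against 780, 394, 997 and 354 CPM in WT. Its near-identical copy Ifit3b had 31.5, 103.8, 19.4 and 47.7 CPM in CKO, against 124, 52.4, 148 and 54.1 CPM in WT. In both genes CKO D149 lay above WT D150 and WT D164, and the WT libraries themselves fell into a high pair, D142 and D154, and a low pair. The log2 fold changes were -1.06 ± 0.45 for Ifit3, the most negative of any member, and -0.90 ± 0.49 for Ifit3b (edgeR adjusted p = 0.150 and 0.247). The transcripts share 51.2% of the 50-base stretches of Ifit3, so reads may be split between them. Ifit1 averaged 760 ± 338 CPM in CKO and 1141 ± 393 CPM in WT, and Ifit2 averaged 711 ± 372 CPM in CKO and 812 ± 323 CPM in WT. Ifit2 had a log2 fold change of -0.19 ± 0.35.

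Of the 8 measured antiviral enzymes and GTPases, none passed edgeR, DESeq2 or limma-voom, and 6 fold changes were negative and 2 positive. At an unadjusted p under 0.05 there were 5 lower and 1 higher. Over all genes tested, 47.0% were negative and 13.2% were lower at that cut. Rsad2 encodes viperin, which makes a chain-terminating nucleotide, and Cmpk2 encodes a nucleotide kinase from the adjoining gene on chromosome 12, 12.8 kb away. Rsad2 averaged 330.4 ± 144 CPM in CKO and 569 ± 220.1 CPM in WT, and Cmpk2 averaged 169.1 ± 64.1 CPM in CKO and 274 ± 98.3 CPM in WT. Their log2 fold changes were -0.78 ± 0.32 and -0.70 ± 0.28. Isg20, an RNA exonuclease, averaged 267 ± 134 CPM in CKO and 508 ± 225 CPM in WT, with a log2 fold change of -0.93 ± 0.37. Mx1, a dynamin-like GTPase that traps viral nucleocapsids, averaged 114 ± 41.5 CPM in CKO and 181 ± 61.4 CPM in WT. Mx1, Ifi44 and the immunity-related GTPase Ifi47 had log2 fold changes of -0.67 ± 0.28, -0.55 ± 0.22 and -0.30 ± 0.16. The edgeR adjusted p-values of these 6 genes lay between 0.127 and 0.231. Exons of Ifi47 overlap Olfr56 on the same strand.

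Eif2ak2 and Samd9l, like Slfn5, had positive fold changes. Eif2ak2, or PKR, which halts translation on double-stranded RNA, had 58.3, 107.9, 79.6 and 79.4 CPM in CKO, against 68.5, 56.4, 58.8 and 61.3 CPM in WT. In CKO, D149, D163 and D169 lay above every WT library and D146 lay among them. The log2 fold change was 0.41 ± 0.17 and did not pass (edgeR adjusted p = 0.134), but it passed when scaled by total counts alone and without CKO D146. Exons of Eif2ak2 overlap Gm26637 on the opposite strand. Samd9l, which suppresses translation in infected cells, had 143, 282, 127 and 186 CPM in CKO, against 128, 121, 204 and 164.05 CPM in WT. CKO D149 was far above the others and the remaining libraries overlapped, and the log2 fold change was 0.26 ± 0.24 (edgeR adjusted p = 0.519).

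The 3 PYHIN genes, a family of nucleic acid-binding proteins clustered on chromosome 1, had negative fold changes, none with an unadjusted p under 0.05 and none called by edgeR, DESeq2 or limma-voom. Ifi205 averaged 1195 ± 446 CPM in CKO and 1647 ± 514 CPM in WT, Ifi204 averaged 767 ± 199 CPM in CKO and 989 ± 188 CPM in WT, and Ifi203 averaged 50.5 ± 15.9 CPM in CKO and 68.0 ± 18.5 CPM in WT. Their log2 fold changes ran from -0.46 to -0.37, and 47.0% of all genes tested were negative. Ifi204 shares 30.2% of its 50-base stretches with other genes, mainly of the same family. Exons of Ifi203 overlap Mndal on the same strand.

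**Figure D3:**
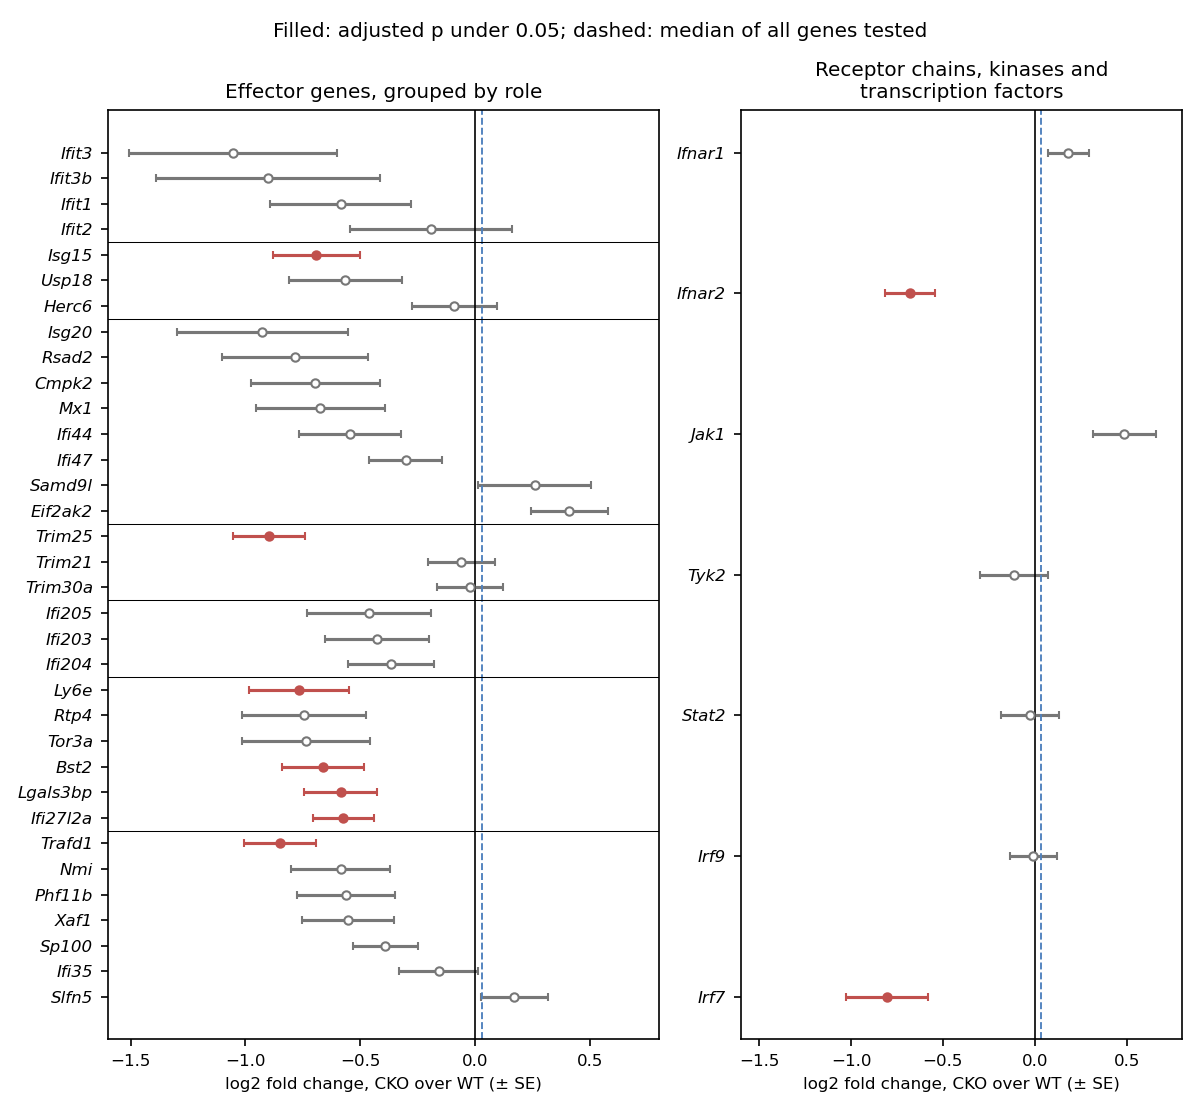
Log2 fold change, CKO over WT, with its SE for each effector gene (left, grouped by role) and for receptor chains, kinases and transcription factors of the pathway (right); filled points passed the test and the dashed line is the median of all genes tested, 0.03. Ifit3 has the most negative estimate, -1.06, with a wide SE of 0.45, while Trim25 at -0.90 and Trafd1 at -0.85 have SEs of 0.16.

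The members also differed in how far libraries of a genotype scattered, a measure that enters the call itself. The coefficient of variation in CKO ran from 12.9 to 23.7% (median 19.5%) in the 7 called genes, against 13.2 to 73.7% (median 31.4%) in the 27 others. In WT it ran from 6.91 to 26.5% (median 16.6%), against 8.53 to 51.5% (median 24.8%). The median log2 fold change was -0.69 in the called genes and -0.55 in the others. Called genes came both from promoters with an ISRE core, 2 of 13, and from promoters without, 3 of 14. Over all genes tested, 4.57% were called lower. The median log2 fold change was -0.56 with a core and -0.55 without.

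By level per length, the first 8 genes had the same order in both genotypes. After Isg15 came Phf11b with 1244 ± 365 CPM per kb in CKO and 1837 ± 402 in WT, and Ifi27l2a with 1201 ± 155 in CKO and 1787 ± 178 in WT. Phf11b and Ifi27l2a did not differ in level beyond their spread. Usp18, Bst2, Ifi47, Ifit1 and Ifi205 followed. The lowest level per length was that of Ifi203, at 7.54 ± 2.37 CPM per kb in CKO and 10.1 ± 2.75 in WT.

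The libraries differed along the whole programme within each genotype. The score, the mean log2 CPM of the 34 genes, was 8.29, 8.93, 7.97 and 8.50 in CKO D146, D149, D163 and D169, and 9.06, 8.68, 9.32 and 8.68 in WT D142, D150, D154 and D164. CKO averaged 8.42 ± 0.40 and WT 8.93 ± 0.31 (SD, n = 4 each), a difference of -0.51 that was described and not tested. CKO D149 lay above WT D150 and WT D164, and the other CKO libraries lay below every WT library. In CKO D146 and D163, 33 of 34 genes were below the WT mean, in D169, 29, and in D149, 19. The median log2 deviation was -0.61, -0.03, -0.998 and -0.47 in CKO D146, D149, D163 and D169. Single WT libraries also lay below that mean, with 11, 34, 1 and 29 genes in WT D142, D150, D154 and D164. Their median log2 deviations were 0.13, -0.21, 0.31 and -0.29, so the count of genes below the mean does not mark CKO.

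The library with the highest score in each genotype was also the one with the most Ifnb1 counts. Ifnb1, the gene of interferon beta, had 8, 38, 0 and 1 counts in CKO D146, D149, D163 and D169, and 1, 1, 35 and 4 counts in WT D142, D150, D154 and D164. CKO D149 and WT D154 thus held most of them. The 14 alpha and alpha-like interferon genes summed to 0, 59, 1 and 5 counts in CKO and to 0, 1, 6 and 16 counts in WT, where D164, the library with the most, had the lowest score. Short reads may not tell these closely related genes apart, which was not tested here. Of the 14, 7 had 0 counts in all libraries, and none of the 15 genes, Ifnb1 included, passed the filter. WT D142 had the second highest WT score with 1 Ifnb1 count, so the layout did not extend below the top library.

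B cell markers summed to 84.8, 26.9, 120.6 and 96.8 CPM in CKO D146, D149, D163 and D169, and to 44.6, 30.5, 49.7 and 25.4 CPM in WT D142, D150, D154 and D164. In CKO the library highest in score, D149, was the lowest and the library lowest in score, D163, the highest, but D169 lay above D146 in both measures. In WT the highest, D154, was also the highest in score. All 7 tested B cell markers had positive fold changes and 1, Ms4a1, was called higher. Macrophage markers were at 75.1, 84.3, 47.2 and 87.5 CPM in CKO and at 159.0, 98.7, 127 and 124 CPM in WT. Every CKO library lay below every WT library, all 7 tested markers were negative and 1, Spic, was called lower. Over all genes tested, 8.09% had every CKO library below every WT library and 47.0% were negative. Of these genes, edgeR called 4.57% of all tested lower and 4.3% higher. Markers of pDCs, the main interferon alpha source in spleen, summed to 191 to 199 CPM in CKO and to 133 to 232 CPM in WT, with Ly6d and Cox6a2 called higher and Pacsin1 lower among 9 tested. Summed erythroid markers were at 5.22 to 73.2 CPM in CKO and 51.1 to 168 CPM in WT, with 3 of 3 tested negative and Alas2 called lower. Mature DC markers were at 23498 to 36435 CPM in CKO and 32774 to 40317 CPM in WT, with 7 of 8 negative and Fscn1 called lower. Markers of cDC2 were at 240.4 to 376 CPM in CKO and 186 to 312 CPM in WT, with Cd4 called higher, and T cell markers at 42.4 to 81.6 CPM in CKO and 36.2 to 62.6 CPM in WT, with Trac called higher. The mean log2 CPM of cDC1 markers minus that of cDC2 markers was -0.53 to 0.16 in CKO and -0.04 to 0.09 in WT. Fits with a covariate were run only for B cell markers, pDC markers and the difference between cDC1 and cDC2 markers. The part of these markers in the effector gene differences was not tested beyond those fits. For macrophage, erythroid, mature DC and T cell markers it was not tested at all.

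**Figure D4:**
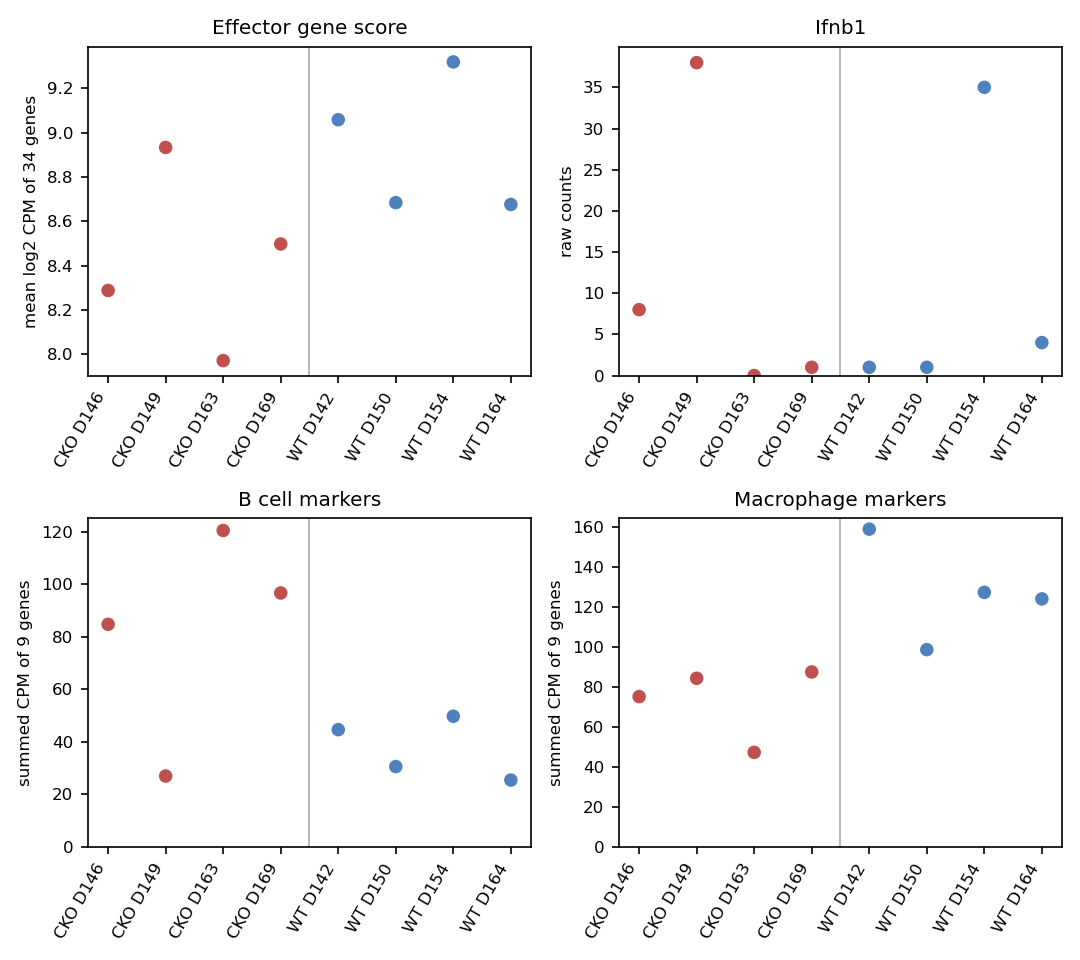
Effector gene score (mean log2 CPM of 34 genes, axis not from 0), Ifnb1 raw counts, and summed CPM of B cell and of macrophage markers in each library, CKO in red and WT in blue. CKO D149 and WT D154 have the highest score of their genotype and 38 and 35 Ifnb1 counts, against 0 to 8 in the other libraries.

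Upstream of the effectors, 1 of 6 interferon receptor genes was called lower, against 4.57% of all genes tested. Ifnar2, the receptor chain that binds STAT2 and USP18, had 73.2, 67.8, 55.4 and 54.7 CPM in CKO, against 108, 96.6, 111 and 86.4 CPM in WT. The groups did not overlap, and the log2 fold change was -0.68 ± 0.13 (edgeR adjusted p = 0.0187). Exons of Ifnar2 overlap Gm21970 on the same strand, so its counts are uncertain. Ifnar1, the other chain, had 114, 123, 113 and 135 CPM in CKO, against 101, 114, 99.1 and 113 CPM in WT. These groups overlapped, and the log2 fold change of 0.18 ± 0.11 did not pass (edgeR adjusted p = 0.299).

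Stat2 and Irf9 had nearly equal levels in both genotypes. Stat2 had 701, 851, 594 and 660 CPM in CKO, against 567, 668, 845 and 777 CPM in WT, and the groups interleaved. The log2 fold changes were -0.03 ± 0.16 for Stat2 and -0.01 ± 0.13 for Irf9, and neither passed. Stat2 and Irf9 are themselves interferon-stimulated. Exons of Irf9 overlap Rnf31 on the same strand, so its counts are uncertain. Among 11 kinases and transcription factors, edgeR called Irf7 alone, against 8.87% of all genes tested called in either direction. Irf7, the factor that amplifies interferon production, had 3240, 4485, 2332 and 3806 CPM in CKO, against 7144, 4941, 7484 and 4631 CPM in WT. All CKO libraries lay below all WT libraries, with D149 again nearest to them, and the log2 fold change was -0.80 ± 0.22 (edgeR adjusted p = 0.0458). Exons of Irf7 overlap Phrf1 on the opposite strand, so its counts are uncertain.

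Of 9 genes that restrain the pathway, 3 were lower and none higher, against 4.57% of all genes tested called lower and 4.3% higher. Socs3, an inhibitor of cytokine receptor kinases, averaged 354 ± 90.0 CPM in CKO and 609 ± 49.8 CPM in WT. Irf2, a repressor that competes at ISREs, averaged 58.6 ± 13.3 CPM in CKO and 96.2 ± 9.51 CPM in WT. Ptpn2, a phosphatase of JAK1, averaged 215 ± 11.04 CPM in CKO and 293 ± 27.2 CPM in WT. The log2 fold changes were -0.78, -0.72 and -0.45, with edgeR adjusted p-values of 0.0256, 0.0256 and 0.0331.

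Related antiviral families gave mixed counts. Of all genes tested, edgeR called 4.57% lower and 4.3% higher, and 13.2% were lower at an unadjusted p under 0.05. Of 8 measured genes of the OAS system, which makes the second messenger of RNase L, edgeR called 3 lower: Oas3, Oasl1 and Oas2. Their log2 fold changes were -1.03, -1.002 and -0.74 (edgeR adjusted p = 0.0256, 0.0187 and 0.0377). DESeq2 and limma-voom each called 4 lower, with 6 lower at an unadjusted p under 0.05. Oasl1 had 1492, 1388, 870 and 1184 CPM in CKO, against 2331, 2243, 3297 and 2011 CPM in WT, and the groups did not overlap. Its exons overlap Gm13822 on the opposite strand. Of 7 interferon-inducible PARP genes and partners, edgeR called 1, Parp14, higher in CKO and 0 lower. DESeq2 and limma-voom each called 1 lower and 1 higher. At an unadjusted p under 0.05 there were 3 lower and 1 higher, and 5 of the 7 fold changes were negative. Parp14, a mono-ADP-ribosyltransferase, had 109.6, 139.8, 120.2 and 101.57 CPM in CKO, against 78.0, 69.0, 80.95 and 101.60 CPM in WT. Its groups touched at CKO D169 and WT D164, and the log2 fold change was 0.52 (edgeR adjusted p = 0.0492). Exons of Parp14 overlap Gm49730 on the same strand, so its counts are uncertain. Of 9 nucleic acid sensor genes edgeR called 0 and DESeq2 called 2 lower, with 3 lower and 1 higher at an unadjusted p under 0.05. Of 3 interferon-induced chemokine genes edgeR called 0, limma-voom 1 and DESeq2 2 lower, with 2 lower at an unadjusted p under 0.05. The enzymes Uba7 and Ube2l6, which activate and carry ISG15, had no unadjusted p under 0.05 and no call by any of these tools.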

How the data were processed

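RNA of sorted mouse splenic cDCs (4 CKO and 4 WT libraries) was sequenced. A SMART-Seq low-input kit copied the RNA and a Vazyme kit made the libraries, per the labels' protocols. The submitters' processing notes name the mm10 build with HISAT2 2.2.1 and fastp 0.23.2. Not given in the sources used here are the program and annotation used for counting, and whether it used strand. Raw counts per gene, with no scaling, were deposited, with gene positions and lengths per the file headers. Amplifying little RNA can favour transcripts by GC content and length to a different degree in each library, which the offset alternative addressed.

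Groups came from the genotype labels. The fit used edgeR 4.0.16 (R 4.3.3): genes kept by filterByExpr, TMM scaling, the robust option, and quasi-likelihood F tests of 11702 genes, with Benjamini-Hochberg adjustment at 0.05. The SE is the log2 fold change divided by the square root of F. Log2 CPM used a prior count of 2. Total counts of 25304765 to 40950088 per library limit only the low genes. The method was tested on simulated data. Any 2 libraries differed by a chi-square of at least 34.6 per degree of freedom. Shared 50-base stretches and exon overlaps came from GENCODE M21, which held 30934 of 31053 gene IDs and gave all 34 members the same position. Alternatives were other scalings and filters, DESeq2 1.42.0, limma-voom (limma 3.58.1), marker covariates, a GC and length offset, other thresholds and each library left out.

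A gene of the kinase and transcription factor list is counted there but not reported here. The members and lists were chosen with earlier results of these data known. Values in every library were given for called members, the 5 smallest p-values among the others, positive fold changes, the highest levels per length, and Ifit3 with Ifit3b. Values in every library for Usp18, for Ifng, and for Oasl1 and Parp14 among related genes were chosen after their values were seen.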

Additional observations from a re-analysis of the deposited data

Results flagged for a closer look

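Among 68 sets of 4 libraries (34 genes in 2 genotypes), 3 had a library whose gap to the next passed Dixon's critical share of the group's range, and chance gives about 1 in 20. Trim25 in WT was the widest, with a gap of 0.876 of the range: library D154 had 231 CPM, against 204 CPM in the next library, and the call of Trim25 was kept without D154. Ifi47 in CKO had a gap of 0.863, with D149 at 1306 CPM and the next library at 951 CPM. Ifi44 in WT had a gap of 0.848, with D154 at 295 CPM and the next library at 231 CPM. The high libraries, CKO D149 and WT D154, were those with the highest effector gene score and the most Ifnb1 counts of their genotype.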

How the results depend on the processing

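The count of 7 lower and 0 higher was the same with RLE or upper-quartile scaling, no filter, a minimum of 5 CPM, limma-voom and non-robust dispersions. It became 17 lower with the pDC covariate, 4 with the GC and length offset (Ifi27l2a, Sp100, Trafd1 and Trim25), and 0 with the B cell covariate, the cDC1 and cDC2 covariate or a threshold of 0.01. At 0.01, DESeq2 called 7, limma-voom 1, and an unadjusted p 7. Scaling by total counts gave 1 higher. Leaving out 1 library gave 1 to 16 lower and 0 to 1 higher, while 70 to 1468 of all genes were called. The main fit called 1038 of all genes, against 1915 with the pDC covariate, 357 with the B cell covariate and 1045 with the offset. At a threshold of 0.01 the main fit called 8. The median log2 fold change of the members stayed between -0.74 and -0.44 on leaving out 1 library. The score difference stayed between -0.68 and -0.34. The cDC1 and cDC2 covariate left 0 of all genes called, with 2195 at an unadjusted p under 0.05, so it could not separate members from other genes. Among uncalled members, signs turned to positive for Ifit2 (0.000611 with the B cell and 0.191 with the cDC1 and cDC2 covariate, -0.55 to 0.12 on leaving out 1 library), and for Herc6 (0.0557 with total counts, 0.0761 and 0.0483 with these covariates, -0.27 to 0.0211). The same held for Trim21 (0.1004 with total counts, -0.13 to 0.0418), Trim30a (0.13 with total counts, 0.112 with the B cell and 0.0223 with the pDC covariate, -0.13 to 0.0621) and Ifi35 (0.0836 with the offset). Samd9l ranged from -0.0229 to 0.42 on leaving out 1 library. The cause was not tested. No paired analysis was possible because the labels give the groups no shared replicate numbers.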

Other observations

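Ifng, the gene of the type II interferon, was readily measured in these sorted cDCs, in which Ifnb1 had at most 38 counts. It had 346, 258, 179 and 356 CPM in CKO D146, D149, D163 and D169, against 387, 454, 727 and 427 CPM in WT D142, D150, D154 and D164. All CKO libraries lay below all WT libraries, with the extremes in CKO D163 and WT D154. The log2 fold change of -0.81 ± 0.24 did not pass (edgeR unadjusted p = 0.00621, adjusted p = 0.0589). Of the 2 interferon ligand genes tested, Ifng and Ifnl2, DESeq2 called 1 lower and limma-voom 0. Ifnl2 had a log2 fold change of -0.08 (edgeR unadjusted p = 0.865). Exons of Ifng overlap Gm49751 on the same strand, so its counts are uncertain. The cells had been sorted as Lin- MHC II+ CD11c+. The 5 NK cell markers summed to 67.6 to 182 CPM in CKO and 87.8 to 153.6 CPM in WT, with 3 of 5 fold changes negative, from -0.34 for Ncr1 to 0.42 for Klrb1c, and edgeR called 0 of them, with none at an unadjusted p under 0.05. Of 7 tested T cell markers, 3 were negative and 1, Trac, was called higher. Their part in the level of Ifng was not tested.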
